A study of Homo sapiens with 4 samples.

Results

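Secretory genes of the gut lining were followed in 2 human colorectal cancer cell lines, HCT116 and Caco-2, after transfection with an siRNA against BORIS. The 39 genes were chosen by symbol, with earlier results of these data known. They cover mucins, trefoil factors and other goblet cell products, REG lectins, and Paneth cell and other antimicrobial proteins. They also cover granule proteins and peptides of enteroendocrine cells, and transcription factors of these lineages. Of the 39, 37 had a probe set paired with that gene alone, out of 18132 genes on the array; MUC5AC and NEUROD1 were not analysed here. For each gene the brightest such probe set, by its mean over all arrays, was used.

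The 4 groups were HCT116 with BORIS siRNA, HCT116 with negative control siRNA, Caco-2 with BORIS siRNA and Caco-2 with negative control siRNA, with 1 Affymetrix PrimeView array each. The knockdown lasted 3 days. BORIS is encoded by CTCFL, a testis-enriched relative of the chromatin insulator protein CTCF. Neither the siRNA sequences nor the culture density is stated in the labels, and nothing says that the arrays of a line came from separate cultures.

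The intestinal epithelium holds absorptive enterocytes and secretory cells. The transcription factor ATOH1 turns progenitors to the secretory fate, and SPDEF then promotes goblet cell maturation, as shown in mice. Goblet cells release gel-forming mucins with trefoil peptides, Paneth cells release lysozyme, defensins and phospholipase, and enteroendocrine cells store peptide hormones in granules with chromogranins.

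Array medians lay between 5.46 and 5.48 on the log2 scale. Background was set, array by array, where 95% of 368 probe sets for olfactory receptors lie at or below it, which gave 4.80 to 5.15. CTCFL had 7 probe sets, of which 6 lay below background on all 4 arrays. The other, of the _x_at kind, read 5.09 with BORIS siRNA and 5.07 with control siRNA in Caco-2, just above background, and 4.93 and 5.07 in HCT116 with BORIS and control siRNA, below it. No fall of the target was thus measured, and at levels this near background a fall could not have been seen, so the knockdown is taken from the labels. Of 12 markers of colorectal epithelium, 7 were above background on both HCT116 arrays and 10 on both Caco-2 arrays. VIL1, LGALS4 and CEACAM5 were below it on both HCT116 arrays, and CDX1 and GPA33 were below it on all 4. Of 10 markers of mature enterocytes, 0 were above background on both HCT116 arrays and 1, SLC2A2, was above it on both Caco-2 arrays. Caco-2 is widely used as a model of enterocytes, and these arrays do not show that state; the lines are named here as labelled, and every difference between them rests on those labels. No fibroblast marker reached background on any array. Of 5 blood markers, HBB (6.38 to 6.64) and CD68 (5.46 to 5.96) were above it on all 4 arrays. The same held for 2 of 4 endothelial markers, VWF (5.37 to 6.05) and KDR (5.36 to 5.42). A value in this range above background therefore does not by itself show that a gene is expressed. With background at the 99th percentile of the olfactory probe sets, the level would be 6.77 and 6.71 in HCT116 with BORIS and control siRNA. Genes with HCT116 values between the 2 levels include KRT20, FOXA1, S100P and SPDEF. Folds given for such genes may not be exact. Between the 2 HCT116 arrays, BORIS minus control siRNA, the median log2 difference was 0.82 for poly-A spike-in controls and 0.39 for hybridisation controls, where Caco-2 gave -0.06 and 0.

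Much of the secretory programme was not detected in either line. Of the 37 genes, 19 were below background on all 4 arrays, with values between 2.51 and 4.88. They included the gel-forming mucin gene MUC2, the goblet cell genes CLCA1, FCGBP and ITLN1, the membrane mucin gene MUC17 and the trefoil gene TFF2. They also included the lectin genes REG1A, REG1B and REG3A, the defensin genes DEFA5, DEFA6 and DEFB1, the immunoglobulin transporter gene PIGR and the crypt gene OLFM4. The chromogranin genes CHGA and CHGB, the neurotensin gene NTS and the transcription factor genes ATOH1 and INSM1 completed this group. No fold is given for these genes, and a value below background does not show that a transcript is absent.

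The other 18 genes were above background on at least 1 array, and they were divided unevenly between the lines. Of the 37 genes, 9 and 8 were above background on the HCT116 arrays with BORIS and control siRNA, and 16 and 13 on the Caco-2 arrays with BORIS and control siRNA. Over all genes, 60.8 to 62.8% were above background per array. On both arrays of Caco-2 and neither of HCT116, 8 of the genes were above background. The opposite held for 2 genes, and 4 (MUC1, ZG16, LCN2 and SPDEF) were above background on every array.

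**Figure D1:**
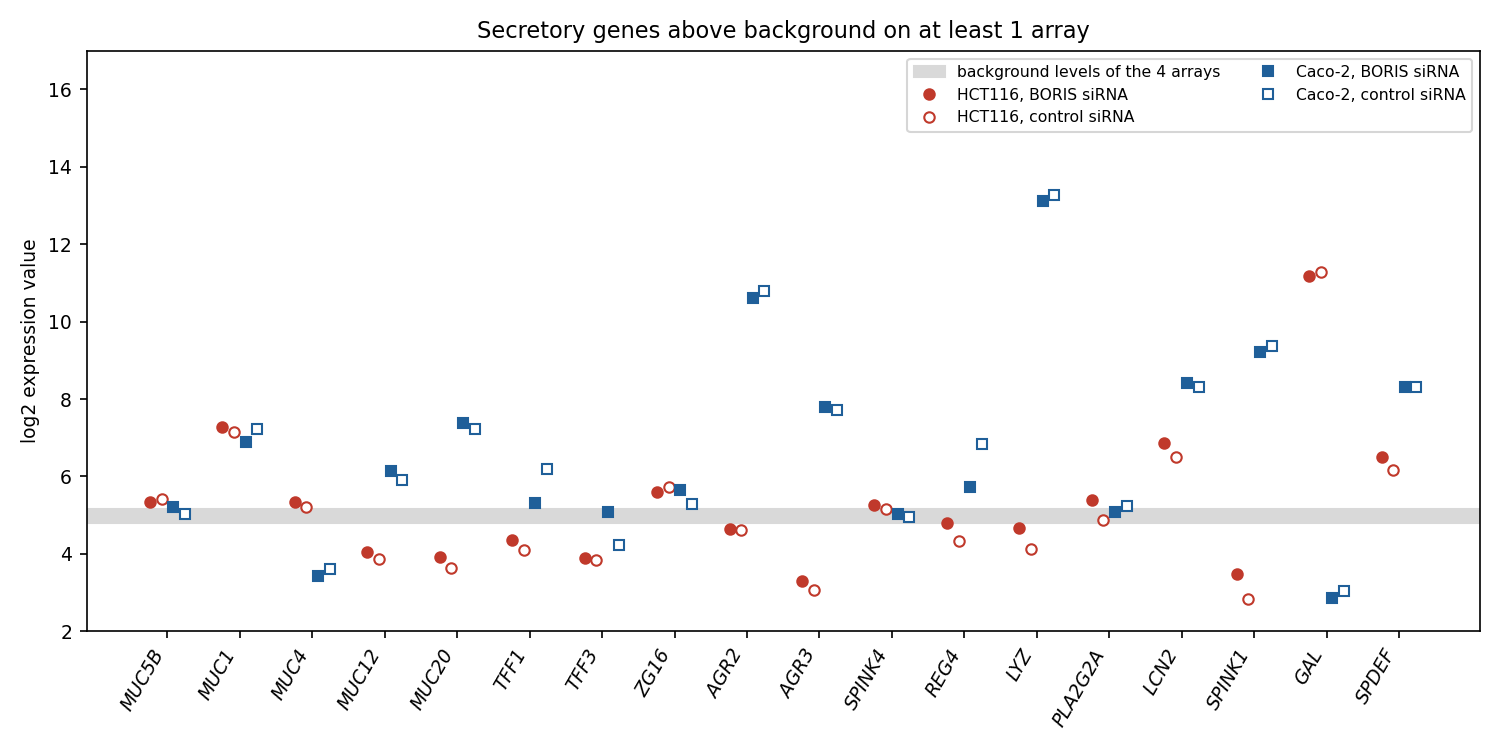
Log2 expression values of the 18 secretory genes above background on at least 1 array, 1 point per array, with HCT116 (red circles) left of Caco-2 (blue squares) and BORIS siRNA (filled) left of control siRNA (open). The grey band spans the background levels of the 4 arrays, 4.80 to 5.15. LYZ, AGR2 and SPINK1 lie above the band in Caco-2 and below it in HCT116, and GAL does the opposite.

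The first comparison asked how the secretory genes differed between the lines, whichever siRNA was used. In HCT116 relative to Caco-2, 10 of the 37 genes were lower and 2 were higher past the test. The lower genes were LYZ, SPINK1, AGR2, AGR3, MUC20, MUC12, SPDEF, REG4, LCN2 and TFF1, and the higher ones were the neuropeptide gene GAL and the mucin gene MUC4. The difference was tested with limma over all 18132 genes, with siRNA as a block and a threshold of 0.05 on the p-value adjusted by Benjamini and Hochberg's method. Over all genes, 10.5% were called lower and 10.9% higher in HCT116, against 27% and 5.41% of the secretory genes. The genes were chosen with earlier results of these data known, so these shares describe the list and are not a test. The median log2 difference was 0.04 over the 37 genes and 0.05 over all genes. The test had 1 residual degree of freedom. Its spread came from how far the siRNA difference disagreed between the lines, moderated over all genes with 4.43 prior degrees of freedom, and may be technical. Markers of colorectal epithelium moved in the same comparison, with 7 of 12 lower in HCT116, 2 higher and a median log2 difference of -0.67. The summed linear level of the 12 was 25557 and 30801 in HCT116 with BORIS and control siRNA, against 44766 and 43498 in Caco-2. The keratin gene KRT20 was 75.7-fold lower in HCT116 (limma adjusted p = 0.000127), the lectin gene LGALS4 at least 72.7-fold lower (0.000105) and the brush border gene VIL1 at least 20.1-fold lower (0.000182), and the higher ones were CDH1 and CDX2. The part of these markers in the secretory differences was not tested. In whole cultures, fewer cells that express a gene and less of its RNA per cell cannot be told apart.

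Of the 7 goblet cell mucus protein genes, AGR2 and AGR3 were lower in HCT116 and the other 5 did not pass the test. AGR2, a protein disulfide isomerase of the endoplasmic reticulum that mice need to make MUC2 protein, read 4.65 and 4.62 in HCT116 with BORIS and control siRNA, against 10.60 and 10.79 in Caco-2 with BORIS and control siRNA. Both HCT116 values were below background and the groups did not overlap. AGR2 was at least 47.6-fold lower in HCT116, counting values below background at that level, and the fitted log2 difference was -6.06 with a standard error of 0.18 (limma adjusted p = 0.000129). Of its 4 probe sets, 3 were above background in Caco-2 and all 3 were lower in HCT116.

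AGR3, a close relative of AGR2, read 3.29 and 3.07 in HCT116 with BORIS and control siRNA, against 7.79 and 7.71 in Caco-2. It was below background on both HCT116 arrays and at least 6.17-fold lower there (log2 difference -4.57 ± 0.19 SE, limma adjusted p = 0.000214). In the RefSeq table of assembly GRCh38.p14 the start sites of the neighbouring genes AGR2 and AGR3 lie 76984 bases apart on chromosome 7, and both are read from the minus strand. The 250 bases before each start site are shown because these neighbours differed between the lines in the same direction. The AGR2 stretch is chr7:16805000-16805249 and the AGR3 stretch is chr7:16881984-16882233, both printed on the minus strand from 5′ to 3′, with capitals for the TATA box letters TATAAA.
AGR2: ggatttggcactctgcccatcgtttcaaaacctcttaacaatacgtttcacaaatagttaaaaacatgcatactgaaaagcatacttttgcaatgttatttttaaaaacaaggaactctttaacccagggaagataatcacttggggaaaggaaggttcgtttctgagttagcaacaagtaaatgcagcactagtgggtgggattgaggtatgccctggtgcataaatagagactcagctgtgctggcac
AGR3: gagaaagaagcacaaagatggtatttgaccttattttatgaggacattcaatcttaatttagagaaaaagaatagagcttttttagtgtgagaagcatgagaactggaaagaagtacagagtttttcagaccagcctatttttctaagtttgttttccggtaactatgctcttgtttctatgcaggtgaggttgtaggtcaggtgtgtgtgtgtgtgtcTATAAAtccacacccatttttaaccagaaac
Searched on both strands, TATAAA was found from 31 to 26 bases before the AGR3 start site and was not found in the AGR2 window. Only exact letters were counted, so near matches, such as cataaa close to the AGR2 start site, were left out. Of 35116 promoter entries, 10.7% held it in the same 250 bases.

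The transcription factor gene SPDEF was above background on every array. It read 6.50 and 6.17 in HCT116 with BORIS and control siRNA, against 8.32 and 8.30 in Caco-2, so the groups did not overlap. SPDEF was 3.94-fold lower in HCT116 (log2 difference -1.98 ± 0.19 SE, limma adjusted p = 0.00233), and its 3 probe sets were all lower there. The dimmest of the 3 was below background on both HCT116 arrays. With background at the 99th percentile, 6.77 with BORIS siRNA and 6.71 with control siRNA, both HCT116 values of SPDEF fell below it. The fold thus depends on where background is set. ATOH1, above it in the lineage, was below background in both lines.

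The mucin genes did not move as a group. MUC20, which encodes a membrane mucin, read 3.92 and 3.63 in HCT116 with BORIS and control siRNA, against 7.39 and 7.23 in Caco-2. It was at least 4.55-fold lower in HCT116 (log2 difference -3.53 ± 0.19 SE, limma adjusted p = 0.00037). That value rests on 1 probe set of the _s_at kind, which can bind related transcripts. The mean of its 4 probe sets differed by -1.51 (limma adjusted p = 0.000455), and the probe set used when the _s_at and _x_at kinds were left out differed by -0.73 (limma adjusted p = 0.0436). MUC12, another membrane mucin gene, read 4.05 and 3.87 in HCT116 with BORIS and control siRNA, against 6.13 and 5.90 in Caco-2, and was at least 1.85-fold lower in HCT116 (limma adjusted p = 0.00179). Its second probe set was below background on every array and differed by -0.02. The mean of both MUC12 probe sets differed by -1.03 (limma adjusted p = 0.00178).

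MUC4 went the other way. It read 5.35 and 5.22 in HCT116 with BORIS and control siRNA, against 3.42 and 3.60 in Caco-2, and passed the test (log2 difference 1.78 ± 0.18 SE, limma adjusted p = 0.00284). The HCT116 values stood just above background, so that MUC4 was at least 1.29-fold higher in HCT116. With values raised to background before the fit, its difference was 0.37 and the call was lost (limma adjusted p = 0.447).

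Neither MUC1 nor MUC5B passed the test. The membrane mucin gene MUC1 read 7.29 and 7.15 in HCT116 with BORIS and control siRNA, against 6.88 and 7.23 in Caco-2, and the 95% interval of its log2 difference ran from -0.37 to 0.69. Of the 10 MUC1 probe sets above background on at least 1 array, 9 were lower in HCT116 and 1, the brightest, was higher, and the mean over all 13 was -0.38. The gel-forming mucin gene MUC5B read 5.34 and 5.42 in HCT116 with BORIS and control siRNA, against 5.21 and 5.02 in Caco-2, with an interval from -0.23 to 0.76. The mucus lectin gene ZG16 (-0.34 to 0.73) and the goblet cell gene SPINK4 (-0.25 to 0.68) also lay near background and did not pass.

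The trefoil gene TFF1, whose peptide protects mucous surfaces, read 4.35 and 4.11 in HCT116 with BORIS and control siRNA, against 5.32 and 6.20 in Caco-2. It was below background in HCT116 and at least 1.55-fold lower there (log2 difference -1.52 ± 0.30 SE, limma adjusted p = 0.0222). With HCT116 counted at background, the log2 difference was -0.16 or lower with BORIS siRNA alone and -1.11 or lower with control siRNA alone. TFF3, the trefoil gene of intestinal goblet cells, was above background on the Caco-2 array with BORIS siRNA and on no other. It did not pass the test (log2 difference -0.79 ± 0.24 SE, limma adjusted p = 0.074), but passed after quantile normalization (limma adjusted p = 0.0127). With values raised to background its difference was 0.06 (limma adjusted p = 0.863), so neither a call nor a direction is given for TFF3.

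Among the 6 Paneth and antimicrobial genes, LYZ and LCN2 were lower in HCT116. LYZ encodes lysozyme, which cleaves bacterial cell walls, and read 4.68 and 4.13 in HCT116 with BORIS and control siRNA, against 13.12 and 13.26 in Caco-2. It was at least 268-fold lower in HCT116, where it was below background (log2 difference -8.78 ± 0.22 SE, limma adjusted p = 0.000105). Its other probe set, of the plain _at kind, differed by -9.32. LCN2, which binds bacterial siderophores, was above background on all arrays, at 6.86 and 6.50 in HCT116 with BORIS and control siRNA, against 8.42 and 8.32 in Caco-2. LCN2 was 3.23-fold lower in HCT116 (log2 difference -1.69 ± 0.19 SE, limma adjusted p = 0.00368). Its HCT116 value with control siRNA lay below the background set at the 99th percentile, 6.71.

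Not all genes of the Paneth and antimicrobial group followed. The phospholipase gene PLA2G2A read 5.38 and 4.87 in HCT116 with BORIS and control siRNA, against 5.09 and 5.24 in Caco-2, and the interval of its difference was -0.63 to 0.54. Outside that group, SPINK1, a secreted trypsin inhibitor, did differ. It read 3.48 and 2.82 in HCT116 with BORIS and control siRNA, against 9.21 and 9.37 in Caco-2. SPINK1 was at least 18-fold lower in HCT116 (log2 difference -6.14 ± 0.26 SE, limma adjusted p = 0.000214).

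Of the enteroendocrine members, GAL alone was detected, and only in HCT116. GAL encodes the neuropeptide galanin and read 11.17 and 11.29 in HCT116 with BORIS and control siRNA, against 2.86 and 3.03 in Caco-2. It was at least 79.4-fold higher in HCT116 (log2 difference 8.29 ± 0.18 SE, limma adjusted p = 0.000105), and its second probe set differed by 5.29. The chromogranin genes CHGA and CHGB, which mark enteroendocrine granules, were below background on all 4 arrays.

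**Figure D2:**
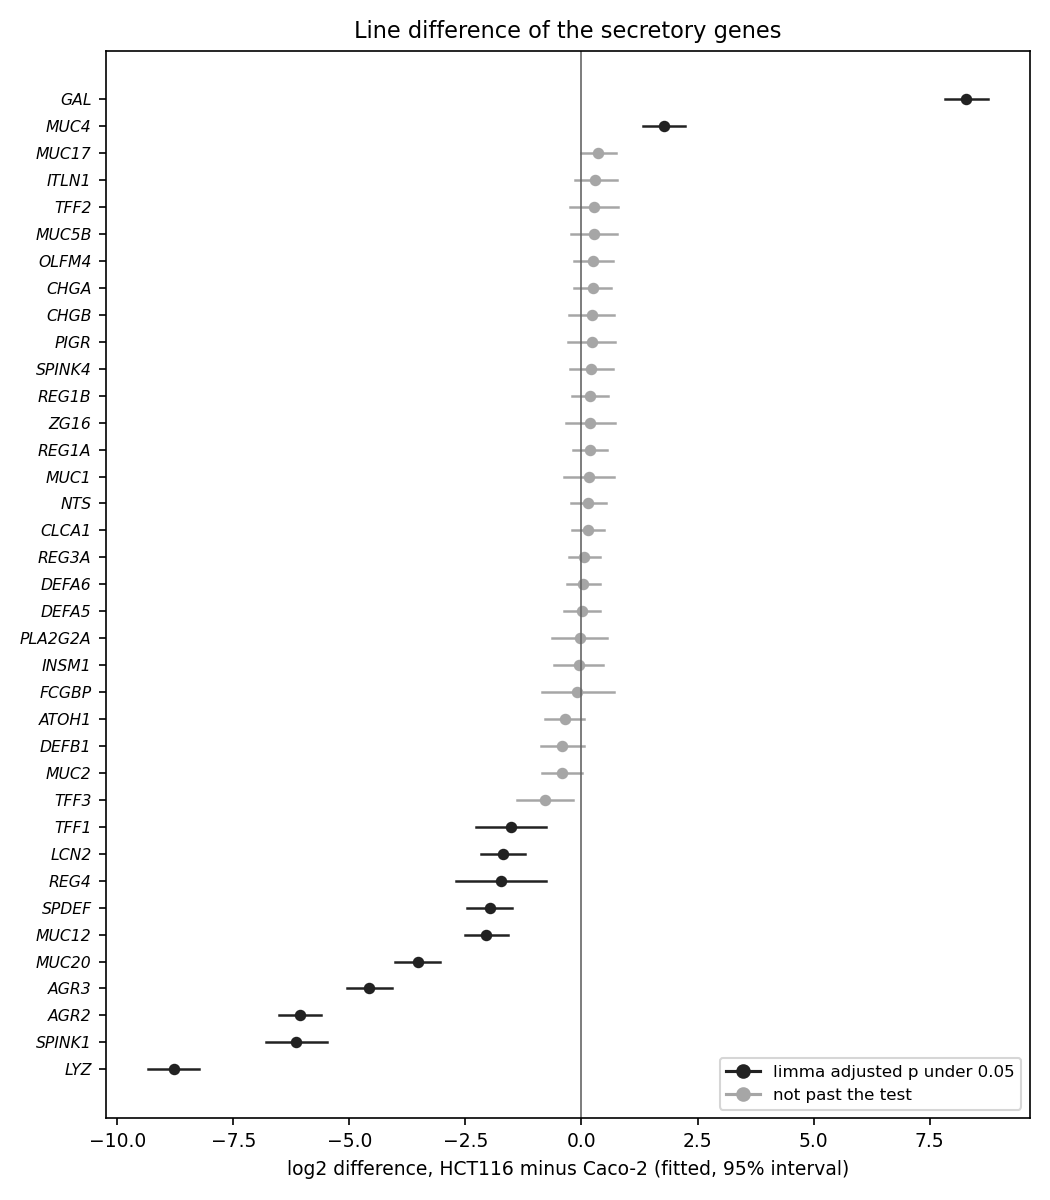
Fitted log2 difference of HCT116 minus Caco-2 for the 37 secretory genes, with the 95% interval from limma as a bar. Black points passed the test and grey points did not. LYZ, SPINK1, AGR2 and AGR3 lie at the negative end and GAL at 8.29 at the positive end; for these 5 genes 1 line was below background, so the lengths are not ranked.

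Further genes of the same pathways were counted in 6 lists, each to be read against the 10.5% of all genes that were lower and the 10.9% that were higher. These lists were also chosen with earlier results of these data known. Among other regulators of the secretory lineage, 10 of 23 fell and 1 rose in HCT116 relative to Caco-2. The pioneer factor gene FOXA1 read 6.18 and 5.60 in HCT116 with BORIS and control siRNA, against 9.92 and 9.74 in Caco-2, a 15.3-fold lower level (limma adjusted p = 0.000301). FOXA2 was at least 4.10-fold lower (limma adjusted p = 0.0028), CREB3L1 at least 5.29-fold lower (0.000776) and XBP1, a driver of secretory capacity, 3.63-fold lower (0.00073). The rest of the 10 that fell were above background on all 4 arrays. They were FOXA3 (3.47-fold, limma adjusted p = 0.0117), MNX1 (2.81-fold, 0.00466), ISL1 (2.69-fold, 0.0154), CREB3L4 (2.09-fold, 0.0391), HES1 (1.97-fold, 0.0215) and HES6 (1.64-fold, 0.0295). The 1 regulator that rose was PAX6, which was below background on both Caco-2 arrays and at least 1.33-fold higher in HCT116 (limma adjusted p = 0.0101).

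Of 20 other goblet cell genes, 7 fell and 1, ELAPOR1, rose in HCT116. S100P was 124-fold lower (limma adjusted p = 0.000105), TSPAN1 11.2-fold lower (0.000206), CAPN8 at least 5.02-fold lower (0.00034) and BCAS1 at least 3.68-fold lower (0.00134). S100P read 5.90 on both HCT116 arrays, near background, so its fold may not be exact. Of 7 other mucin genes, MUC13 alone passed the test. MUC13 read 4.37 and 4.58 in HCT116 with BORIS and control siRNA, against 7.82 and 8.68 in Caco-2, and was at least 8.75-fold lower.

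Mucin O-glycan enzymes went both ways, with 7 of 26 lower and 4 higher in HCT116. GCNT3, which branches mucin core glycans, was 6.07-fold lower (limma adjusted p = 0.000905), ST3GAL1 3.51-fold lower (0.00949) and B3GNT7 3.21-fold lower (0.0176). The initiating enzyme gene GALNT5 was at least 7.12-fold higher (0.00296). ST6GALNAC2, another of the 4 called higher (0.0243), was below background on all 4 arrays, so no fold is given.

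Of 17 other Paneth and antimicrobial genes, 2 fell and 2 rose, shares close to those over all genes. The matrix protease gene MMP7, which processes defensins in mouse Paneth cells, read 5.08 and 4.35 in HCT116 with BORIS and control siRNA, against 11.96 and 11.45 in Caco-2, at least 95.8-fold lower (limma adjusted p = 0.000105). CD24 was 14.8-fold lower (0.000169) and the protease inhibitor gene SLPI 2.86-fold higher (0.0113). The bacterial sensor gene NOD2 was called higher (0.0264), but only the HCT116 array with control siRNA was above background. With control siRNA alone its log2 difference was 0.32 or more, and no fold over both siRNAs is given.

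Of 18 other enteroendocrine hormone and granule genes, 4 rose in HCT116 and 0 fell. CPE, the carboxypeptidase that trims prohormones, read 8.98 and 8.95 in HCT116 with BORIS and control siRNA, against 3.40 and 3.70 in Caco-2, at least 16.6-fold higher (limma adjusted p = 0.000169). The granin gene SCG2 was at least 6.47-fold higher (0.000245). GAST and SCG5 also passed the test (0.0301 and 0.0426) but no array showed either gene above background, so no fold is given. Of 4 neuron markers, SYT1, a synaptic vesicle calcium sensor, was also at least 8.31-fold higher in HCT116 (0.000226), and the other 3 did not pass. The summed linear level of the 4 was 443 and 496 in HCT116 with BORIS and control siRNA, against 158 and 196 in Caco-2. That sum includes SYT1, at log2 values of 7.66 and 8.29 in HCT116 with BORIS and control siRNA, against 3.33 and 3.85 in Caco-2. It therefore does not show a rise shared by all 4, and the part of these markers in the enteroendocrine values was not tested.

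**Figure D3:**
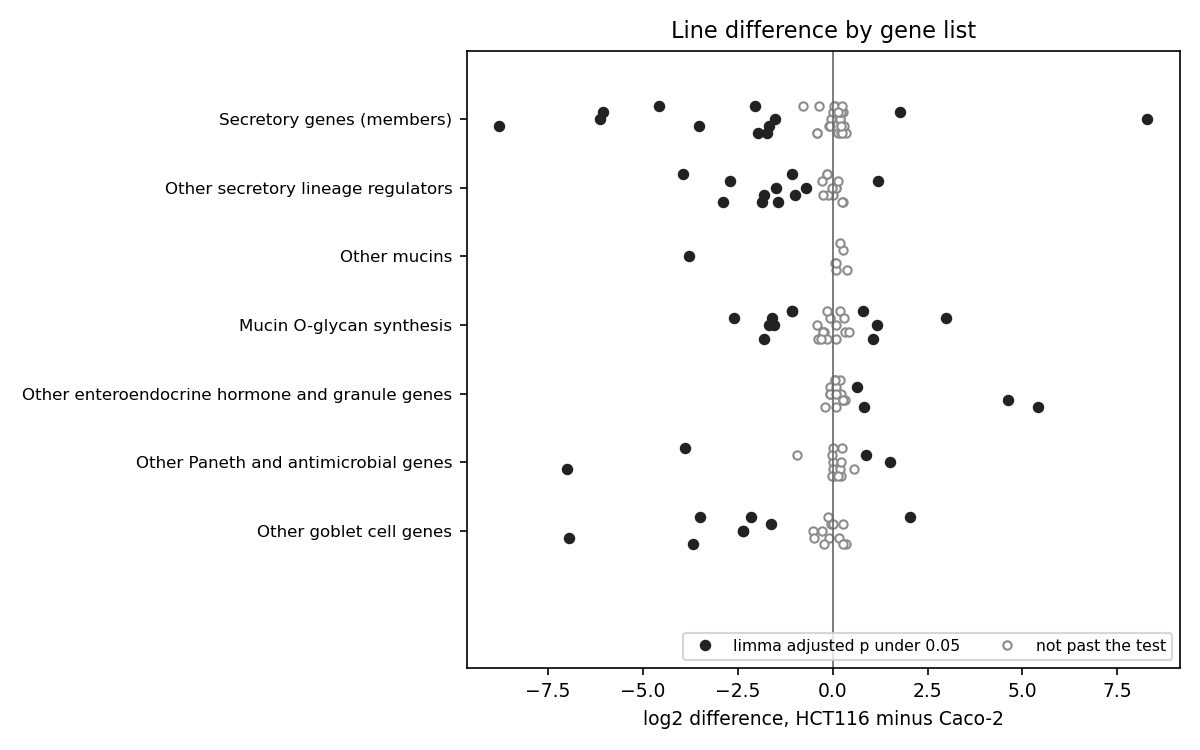
Log2 difference of HCT116 minus Caco-2 for the secretory genes and for 6 lists of related genes, 1 point per gene, filled where the limma adjusted p was under 0.05. Points are spread vertically within a list for legibility. Among enteroendocrine hormone and granule genes the filled points are all positive, and among other goblet cell genes 7 of 8 are negative.

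The second comparison asked what BORIS siRNA did to these genes in Caco-2. REG4 was lower with BORIS siRNA, TFF1 was lower by less than 2-fold, and TFF3 could be given only as a bound. The other 13 detected secretory genes lay within the middle 95% of all genes. With 1 array per group, no replicate stands behind these differences and no p-value can be given. Of the 16 secretory genes above background on at least 1 Caco-2 array, 1 was lower and 0 higher at 2-fold or more, where 0.0348% of 11483 genes were lower and 0.253% higher. As the genes were chosen with earlier results known, this is a count and not a test. The median difference of the 16 was 0, and that of all 11483 genes was -0.009.

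REG4 encodes a secreted lectin of the REG family that is found in enteroendocrine and goblet cells. Its brightest probe set read 5.73 with BORIS siRNA and 6.85 with control siRNA in Caco-2, a log2 difference of -1.12. The second probe set read 5.05 with BORIS siRNA and 6.60 with control siRNA, a difference of -1.55, and the third was below background on all arrays. Both probe sets above background thus exceeded 2-fold, and both values with BORIS siRNA remained above background. The difference was -0.93 with 16 added on the linear scale, and it could only be given as -0.27 or lower with background set at the 99th percentile of the olfactory probe sets (6.58 with BORIS siRNA).

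In HCT116, REG4 read 4.79 with BORIS siRNA and 4.33 with control siRNA, both below background, so no fold is given and the difference between the lines in their response was not tested. REG4 was at least 2.25-fold lower in HCT116 than in Caco-2 (log2 difference -1.73 ± 0.39 SE, limma adjusted p = 0.0311), and with HCT116 counted at background that difference was -0.58 or lower with BORIS siRNA alone and -1.76 or lower with control siRNA alone. The 250 bases before the REG4 start site, chr1:119811461-119811710 on the minus strand of GRCh38.p14, are shown because REG4 was the 1 secretory gene past 2-fold between siRNAs. Capitals mark a forkhead match (TGTTTGC) and a TATA box match (TATAAA).
REG4: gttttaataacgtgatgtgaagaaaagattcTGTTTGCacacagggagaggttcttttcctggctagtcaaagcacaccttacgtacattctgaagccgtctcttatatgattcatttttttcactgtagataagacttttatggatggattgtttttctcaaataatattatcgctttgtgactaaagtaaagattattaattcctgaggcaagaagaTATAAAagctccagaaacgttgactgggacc
The search covered both strands for TATAAA, for the forkhead letters TGTTTAC or TGTTTGC and for the CTCF core letters AGGGGGC, and the matches did not overlap. The forkhead match lay 219 to 213 bases before the start site, and 6.09% of all promoter entries held 1. The CTCF letters were not found in the REG4 window, and 13.3% of all entries held them. Of the 12 secretory genes that differed between the lines, 8 had a promoter entry, of which 3 held TATAAA, 1 the forkhead letters and 0 the CTCF letters.

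TFF1 read 5.32 with BORIS siRNA and 6.20 with control siRNA in Caco-2, a difference of -0.89, on its 1 probe set. Both values lay below the background set at the 99th percentile (6.58 with BORIS siRNA and 6.79 with control siRNA). Of the 11483 genes, 0.122% had a difference as low as that of TFF1, with values below background raised to it. That raising draws differences of dim genes toward no change, and bright and dim genes are pooled. The share is therefore not a p-value for TFF1. The middle 95% of those genes lay between -0.48 and 0.58, and REG4 and TFF1 were the 2 secretory genes below that range. TFF3 read 5.08 with BORIS siRNA and 4.23, below background, with control siRNA, which gives a difference of at least 0.03. The values as deposited differ by 0.85, above the upper limit of 0.58, so whether TFF3 lies inside the range cannot be told. MUC5B and SPINK4 also had 1 of the 2 values below background, and theirs as deposited differ by 0.19 and 0.07.

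**Figure D4:**
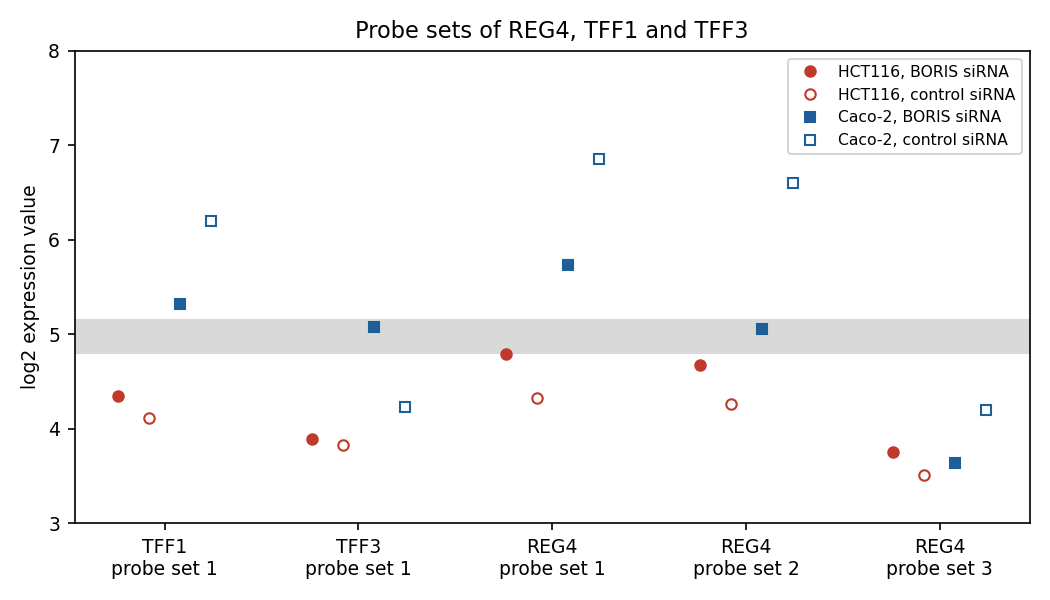
Log2 expression values of every probe set of TFF1, TFF3 and REG4, ordered within a gene from brightest to dimmest, with 1 point per array and the background band in grey. In Caco-2 (blue squares) TFF1 and the 2 brighter REG4 probe sets are lower with BORIS siRNA (filled) than with control siRNA (open), and all HCT116 values lie below the band.

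Of the 10 genes lower in HCT116 than in Caco-2, REG4 and TFF1 thus had the lowest siRNA differences in Caco-2, and the other 8 lay inside the middle 95% of genes. Among those 8, the log2 difference of BORIS minus control siRNA was -0.14 for LYZ, -0.19 for AGR2, 0.07 for AGR3, -0.16 for SPINK1, 0.16 for MUC20, 0.23 for MUC12, 0.09 for LCN2 and 0.02 for SPDEF. MUC1 stood at -0.36 and ZG16 at 0.34, both inside the middle 95% of genes. In the related lists, B3GNT7, a glycosyltransferase gene, was higher with BORIS siRNA, at 7.97 against 6.50 with control siRNA, and was the 1 gene of the 6 lists past 2-fold in Caco-2. Under 2-fold but outside the middle 95% of genes in Caco-2 were MUC13 (-0.86), KLF4 (-0.52), SYTL2 (0.84), SOX4 (0.66) and MNX1 (0.60).

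In HCT116 no secretory gene reached 2-fold between the siRNAs. Of the 9 above background on at least 1 array, 0 were higher and 0 lower, where 0.476% of 11353 genes were higher and 1.22% lower. The differences ran from -0.12 for GAL to 0.36 for LCN2, with SPDEF at 0.33, PLA2G2A at 0.29 or more, MUC1 at 0.13 and MUC4 at 0.12, and all 9 lay inside the middle 95% of genes, -0.86 to 0.69; PLA2G2A as deposited, at 0.51, does too. Their median was 0.123, and that of all 11353 genes was -0.037. Beside this stand the spike-in controls, which were higher on the HCT116 array with BORIS siRNA; their part in these values was not tested. In the related lists, GALNT10 was lower with BORIS siRNA, at 6.31 against 7.46 with control siRNA. Under 2-fold but outside the middle 95% of genes in HCT116 were CREB3L4 (0.90), FOXA3 (0.89) and SCG2 (0.72).

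**Figure D5:**
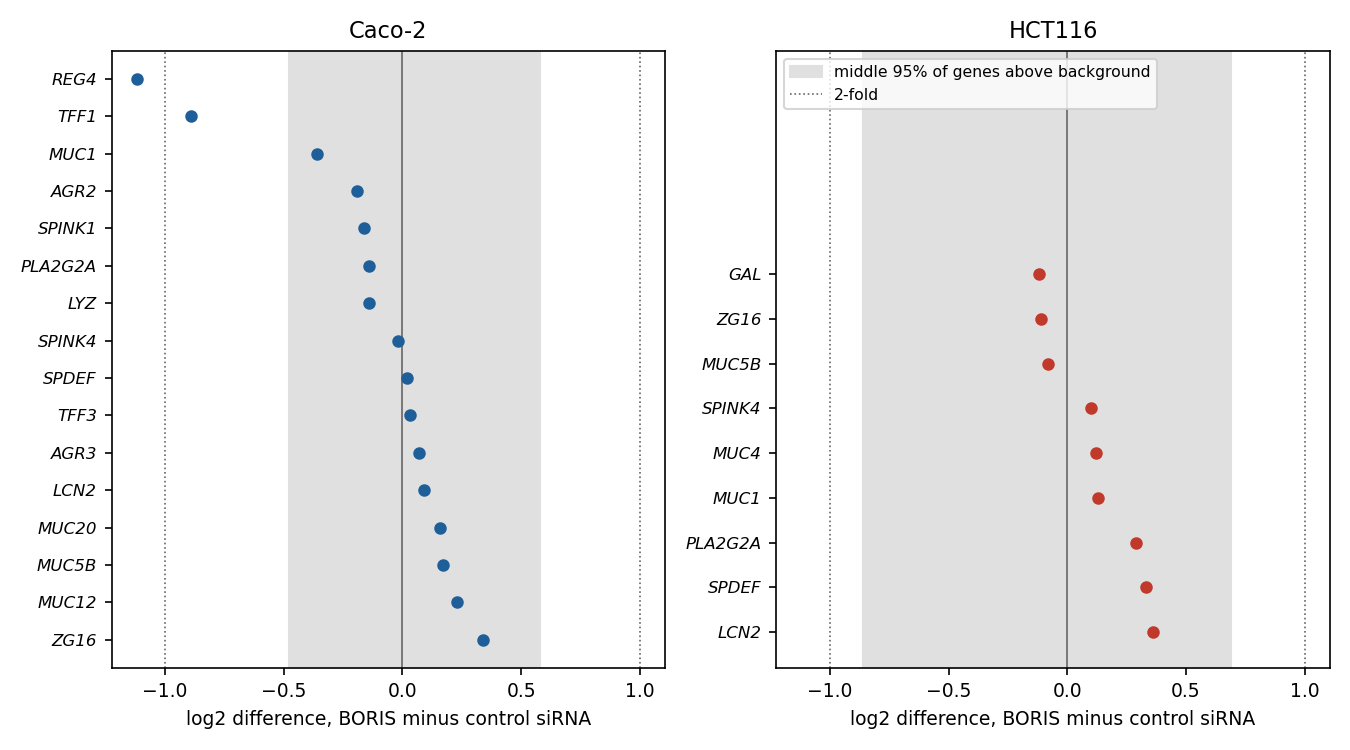
Log2 difference of BORIS siRNA minus control siRNA for the secretory genes above background on at least 1 array of the line, with values below background raised to it. The grey band holds the middle 95% of all genes above background and dotted lines mark 2-fold. REG4 lies beyond 2-fold and TFF1 outside the band in Caco-2, where TFF3 is plotted at its lower bound of 0.03, and all 9 genes in HCT116 lie inside it.

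The last comparison asked whether both lines shared an effect of BORIS siRNA. In the limma fit with cell line as a block, 0 of the 37 secretory genes passed an adjusted p under 0.05, as did 0% of all 18132 genes in either direction. The smallest adjusted p over all genes was 0.867. At an unadjusted p under 0.05 there were 869 genes, 1 of them a secretory gene. A shared size is given only for the 4 secretory genes above background on every array, since REG4, TFF1, LYZ, AGR2 and GAL were measured in 1 line alone. The 95% interval of the shared log2 difference was -0.31 to 0.66 for SPDEF, -0.24 to 0.70 for LCN2, -0.64 to 0.42 for MUC1 and -0.42 to 0.65 for ZG16.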

How the data were processed

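Biotin-labelled cRNA was hybridised to 4 PrimeView arrays, per the labels' protocols. The table as deposited holds 1 log2 value per probe set and array, a unit inferred from the range of 2.13 to 14.17. How the authors corrected background, normalized and summarised is not given in the sources used. Precision is limited by the number of arrays, 1 per group.

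Of 49395 probe sets, 44988 were paired with 1 gene by the platform's annotation and 1832 with several, which were not used; 2473 were not listed and 102 were controls. Symbols were checked by Entrez ID against RefSeq genes of GRCh38.p14, which changed 0. The brightest probe set by the mean of 4 arrays stood for a gene, giving 18132 genes. Lines and the shared siRNA effect were tested in 1 fit with limma 3.58.1 in R 4.3.3 (eBayes with trend, no filter on level, so that every member entered), with Benjamini-Hochberg adjustment over all genes. Within a line, values below background (95th percentile of olfactory receptor probe sets) were raised to it and differences of 2-fold or more counted; genes below it on both arrays were left out. A fold against values below background is a lower bound.

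Members and lists were chosen with earlier results of these data known. Genes named from a list are its up to 4 called genes that differ most between the lines, and any at 2-fold between siRNAs; PAX6, ELAPOR1, ST6GALNAC2 and marker genes were named after their values were seen. Promoters came from RefSeq, with entries for 25 of the 39 members. The fit was tested on simulated data. Alternatives were a filter on level, raising values to background before the fit, a loess correction, quantile normalization, the mean of all probe sets, probe sets of the plain and _a_at kinds alone, adding 16 on the linear scale, eBayes without trend, no floor, a background at the 99th percentile, 1.5-fold, and the arrays of 1 siRNA alone.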

Additional observations from a re-analysis of the deposited data

How the results depend on the processing

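The 10 secretory genes called lower in HCT116 than in Caco-2 numbered 10 to 12 under the 8 alternatives of the fit. The 2 called higher became 1 when values were raised to background before the fit, where MUC4 was lost, and 1 with only genes at the array median or above tested, where MUC4 did not enter. No called line difference changed sign under these alternatives. TFF3 gained a call with the mean of all probe sets, quantile normalization or loess (limma adjusted p 0.0274, 0.0127 and 0.0111), and stood at 0.06 (0.863) with values raised to background. MUC20, at -3.53, kept its call but was -1.51 with the mean of all probe sets and -0.73 without the _x_at and _s_at kinds. The shared siRNA effect stayed at 0 secretory genes throughout; over all genes, 33 were called higher and 30 lower with values raised to background. That setting gives dim genes 1 common value per array and so removes their own spread, by its construction, which also bears on the p-value of MUC4 there.

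In Caco-2, the 1 secretory gene lower at 2-fold, REG4, became 0 with 16 added on the linear scale and with background at the 99th percentile, and 2 (with TFF1) at 1.5-fold. Over all genes in Caco-2, 29 were higher and 4 lower; the number higher was 17 with the mean of all probe sets, 11 with 16 added, 13 with background at the 99th percentile and 278 at 1.5-fold, and the number lower was 1, 0 and 129 in the last 3 settings. In HCT116, 54 were higher and 139 lower; the number higher was 35 with the mean of all probe sets, 86 after quantile normalization, 22 with 16 added, 18 with background at the 99th percentile and 444 at 1.5-fold, and the number lower was 49 with the mean of all probe sets, 72 with 16 added, 68 with the higher background and 943 at 1.5-fold. The cause of these shifts was not tested. INSM1 has no probe set other than the _s_at kind.

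No paired analysis was possible because the labels give no replicate numbers; the pairing of the siRNAs within a line is already in the fit of the shared effect, as the block for cell line. Leaving out an array leaves no residual degree of freedom in the fit. A signal near background limits MUC4, MUC5B, SPINK4, ZG16, PLA2G2A and TFF3. In Caco-2, TFF1 and MUC12 with either siRNA and REG4 with BORIS siRNA also lay below the background set at the 99th percentile. That level was 6.58 with BORIS siRNA and 6.79 with control siRNA. In HCT116 it was 6.77 with BORIS siRNA and 6.71 with control siRNA. SPDEF with either siRNA and LCN2 with control siRNA lay below it there.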
